A study of Mus musculus with 10 samples.

Results

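Genomic imprinting leaves 1 parental copy of a gene silent, and the 10 genes described here are imprinted mouse genes with parts in embryonic growth: Dlk1, Cdkn1c, Grb10, Plagl1, Peg3, Zim1, Mest, Peg10, Ndn and Snrpn. They were taken by gene symbol from the 35663 entries of the expression table, where each of the 10 is found once. All 10 passed the filter on low values in each comparison. The study asked what the loss of netrin 1 from the renal stroma does to the developing kidney, and its RNA-seq was made from whole kidneys of mouse embryos at E13.5 with the strain given as C57/b6. Libraries fell into 3 groups, wild type (n=4), Foxd1-Cre (the Foxd1GC control, n=3) and Foxd1-Cre with Ntn1c/c (the Ntn1SPKO mutant, n=3). Cre is produced in stromal progenitors from the Foxd1GC allele, and Ntn1SPKO kidneys thereby lose Ntn1 in the stroma, whereas cells outside the Foxd1 lineage of the same kidney keep the unrecombined alleles. Control kidneys carry the Cre allele and an intact Ntn1. The paper states that 1 Foxd1 allele is lost in Foxd1GC. Controls and mutants share this allele and wild-type kidneys lack it, so differences between mutants and wild type combine it with the loss of Ntn1. Nothing in the labels says that the libraries of a group came from separate embryos, so p-values measure the spread between these libraries. Libraries of both sexes in the wild-type and control groups show that each of these 2 groups holds more than 1 embryo.

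Imprinted genes lie in clusters, each under a control region whose DNA methylation is set in the egg or the sperm. As a broad rule, genes expressed from the paternal copy favour growth of the embryo and genes expressed from the maternal copy restrain it, and many of them are abundant in embryonic organs and decline after birth. Among the 10 genes Dlk1, Peg3, Mest, Peg10, Plagl1, Ndn and Snrpn are expressed from the paternal copy and Cdkn1c, Grb10 and Zim1 from the maternal copy. The reads carry no parental information here, so all values are sums over both copies.

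Levels are given in FPKM (fragments per kilobase of transcript, scaled between libraries). These are per length and can be set side by side between genes. Steps between low values place the depth used in this scaling at roughly 28.2 to 34.5 M fragments (M, mega) per library, which may differ from the number sequenced. This depth puts the 10 genes at between 170 fragments (Snrpn, the lowest library) and 32400 fragments (Mest, the highest). Counting error is therefore small beside the differences between libraries for most of them. The deleted gene, Ntn1, was at 10.7 to 16.3 FPKM in Ntn1SPKO libraries, 24.2 to 51.5 in controls and 27.1 to 46.3 in wild type. The libraries differed in sex and in tissue markers. Y-linked transcripts summed to 88.6 to 98.1 FPKM in all 3 Ntn1SPKO libraries, in control replicate 2 and in wild-type replicate 3, and to at most 1.02 FPKM in the other 5, so those 5 came from female kidneys and every mutant library from male ones. Control replicate 3 stood apart in its tissue markers, with 346 FPKM summed over 8 skeletal muscle markers where the other 9 libraries had 13.8 to 84.8, and with 61.7 FPKM summed over 6 ureteric bud markers where the others had 167 to 209. Kidney identity was otherwise present in each library, with 576 to 665 FPKM over 6 markers of cortical stroma and 229 to 363 over 6 of nephron progenitors.

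The genes are scattered over 5 chromosomes, and some of them are neighbours. On chromosome 7 of GRCm38, Zim1 (6671269 to 6696450) and Peg3 (6703892 to 6730431) lie side by side at the proximal end, Snrpn (59982495 to 60140219) and Ndn (62346569 to 62350262) share a domain in the middle, and Cdkn1c (143458339 to 143461050) is near the distal end. Chromosome 6 holds Peg10 (4747306 to 4760517) and Mest (30723547 to 30748465). Plagl1 is on chromosome 10 (13060504 to 13131694), Grb10 on chromosome 11 (11930508 to 12038683) and Dlk1 on chromosome 12 (109452823 to 109463336). All are protein-coding genes, with longest coding sequences from 720 bases (Snrpn) to 4713 bases (Peg3). RefSeq promoter windows of the build GRCm38.p6 were found for 8 of the 10 genes, in 14 windows. The 3 printed here are the 250 bases before the start of Dlk1, the gene that varied most between libraries, of Mest, the most abundant and steadiest gene, and of Grb10 at its start richest in CpG. Capitals mark each CpG, the dinucleotide that DNA methylation acts on.
Dlk1, chr12:109452573-109452822, plus strand: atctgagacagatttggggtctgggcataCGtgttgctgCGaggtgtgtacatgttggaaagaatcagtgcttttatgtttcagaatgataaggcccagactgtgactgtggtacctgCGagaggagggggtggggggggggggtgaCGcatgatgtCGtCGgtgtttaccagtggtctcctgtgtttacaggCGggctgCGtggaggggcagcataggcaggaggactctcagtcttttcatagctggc
Mest, chr6:30737800-30738049, plus strand: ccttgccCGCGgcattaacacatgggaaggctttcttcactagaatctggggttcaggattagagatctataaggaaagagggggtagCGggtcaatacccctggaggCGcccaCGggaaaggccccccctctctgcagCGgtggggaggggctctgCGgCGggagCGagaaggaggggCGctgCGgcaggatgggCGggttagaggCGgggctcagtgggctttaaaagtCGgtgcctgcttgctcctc
Grb10, chr11:12037421-12037670, minus strand: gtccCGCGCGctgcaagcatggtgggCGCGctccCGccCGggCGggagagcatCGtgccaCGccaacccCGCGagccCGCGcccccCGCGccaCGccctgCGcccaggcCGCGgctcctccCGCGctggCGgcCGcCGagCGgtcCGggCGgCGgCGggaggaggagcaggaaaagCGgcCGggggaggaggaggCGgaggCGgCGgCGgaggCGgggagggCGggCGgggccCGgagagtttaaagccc
These windows hold 8, 14 and 40 CpG, against a median of 6 over 32851 RefSeq windows of the same length. The Grb10 window lies at the 98.7th percentile, a rank that follows in part from its choice as the start richest in CpG. The other Grb10 window, which is not printed, holds 8 CpG and lies at the 57th percentile. The coefficient of variation of FPKM over the 10 libraries was 63.1% for Dlk1, 9.03% for Mest and 9.60% for Grb10. A TATA box (TATAAA, either strand) was found in 0 of the 3 windows and in 12.4% of all windows. The letters CCATNTT, the core bound by YY1, were likewise in 0 of the 3 and in 12.4% of all, but the other Grb10 window holds them 1 time. Methylation was not measured in these samples.

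The levels of the imprinted growth regulators in the E13.5 kidney ran from very abundant to near the median gene. Averaged over all 10 libraries, the order was Mest (1063 FPKM), Cdkn1c (618), Grb10 (359), Peg3 (175), Plagl1 (157), Dlk1 (129), Peg10 (43.8), Ndn (25.1), Zim1 (16.7) and Snrpn (11.9). Of 14534 genes averaging 0.5 FPKM or more, 99.1% were below Mest, 81.1% below Peg10, 68.5% below Ndn, 57.2% below Zim1 and 48.3% below Snrpn. Mest exceeded Cdkn1c in each of the 10 libraries, although the highest Cdkn1c value (964 FPKM) is above the lowest Mest value (961). Neighbours in the order whose ranges over libraries did not touch were Cdkn1c and Grb10, Grb10 and Peg3, Dlk1 and Peg10, and Peg10 and Ndn. The other neighbours overlapped, and Peg3 exceeded Plagl1 in only 7 of 10 libraries.

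**Figure D1:**
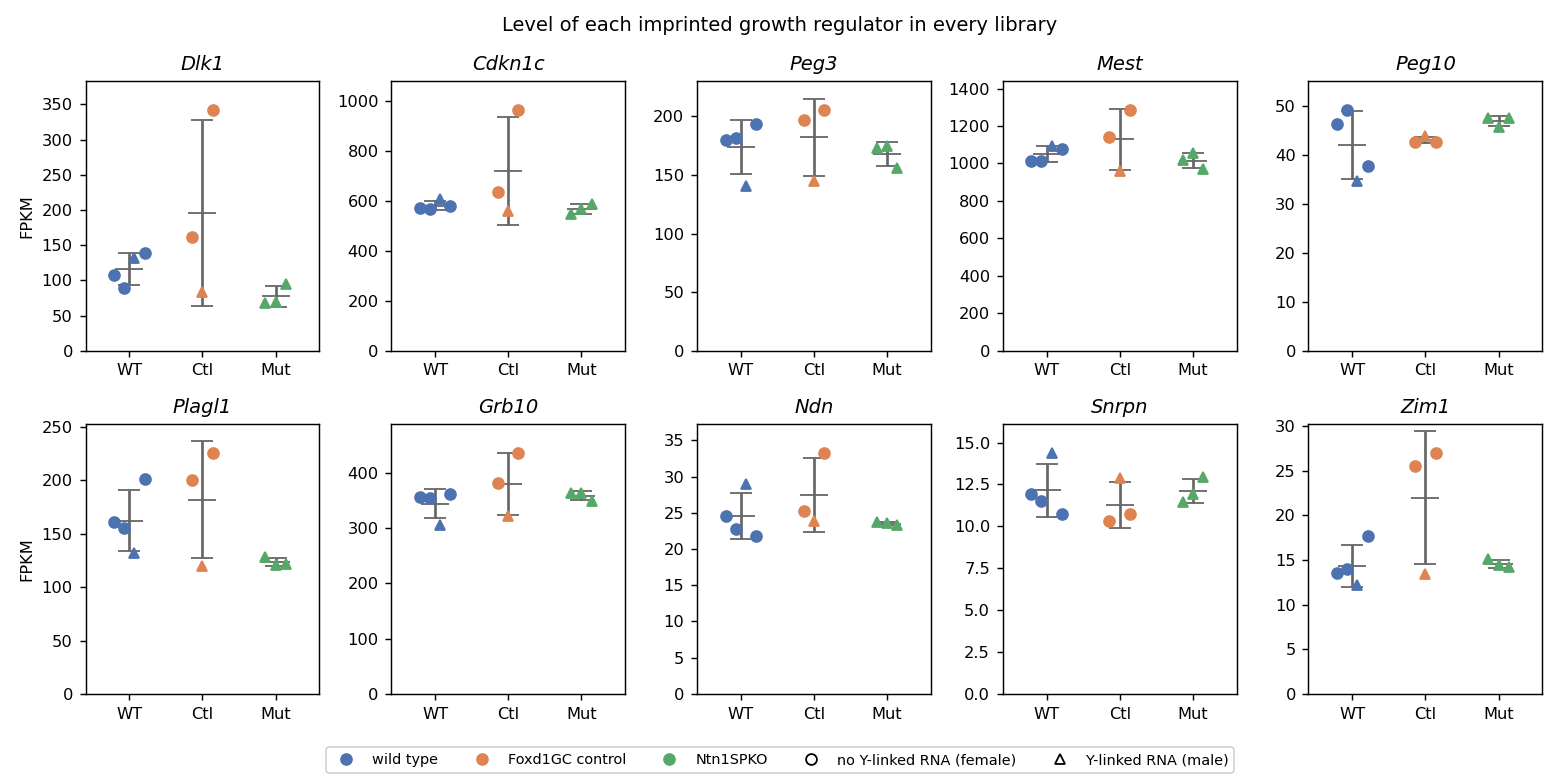
FPKM of each of the 10 genes (vertical axes, each from 0) in wild-type (WT), Foxd1GC control (Ctl) and Ntn1SPKO (Mut) libraries. Points are single libraries, triangles are libraries with Y-linked transcripts, bars are the mean and SD. The control group is spread widest for Dlk1, from 83.8 to 342 FPKM, and the 3 mutant libraries sit close together for most genes.

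No imprinted growth regulator was called in any comparison, a call needing both an adjusted p under 0.1 by limma and a difference of 2-fold or more on log2(FPKM+0.1). Between Ntn1SPKO and control kidneys 0 of 10 were called, with 0.055% of 14550 tested genes called, and 0 of 10 had an unadjusted p under 0.05, where 10.7% of all genes did. In that comparison 8 of the 10 were lower and 2 higher in mutants, with a median log2 fold change of −0.175 beside 0.01 for all genes. The groups did not overlap for 1 gene that was lower (Ndn) and 1 that was higher (Peg10), beside 8.91% and 11% of all genes. Between Ntn1SPKO and wild-type kidneys 0 of 10 were called (0.0485% of 14432 genes), 2 had an unadjusted p under 0.05 (5.76%), and the groups did not overlap for 1 lower gene, Plagl1 (3.54%), and 0 higher ones (3.56%). The median was −0.04 with 6 genes lower and 4 higher, beside 0.00 for all genes. Apart from Dlk1 and Plagl1, differences from wild type ran from −0.05 (Ndn and Mest) to 0.18 (Peg10). Between control and wild-type kidneys 0 of 10 were called (0.00685% of 14594 genes), 0 had an unadjusted p under 0.05 (7.06%), and no gene separated the groups (4.04% of all genes lower and 4.04% higher), but 9 of 10 were higher in controls, with a median of 0.13 beside −0.01 for all genes and values from −0.10 (Snrpn) to 0.56 (Zim1). The 3 comparisons share libraries, so their values are not independent of each other. RNA from a whole kidney cannot separate fewer cells of a type from less RNA in each cell.

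**Figure D2:**
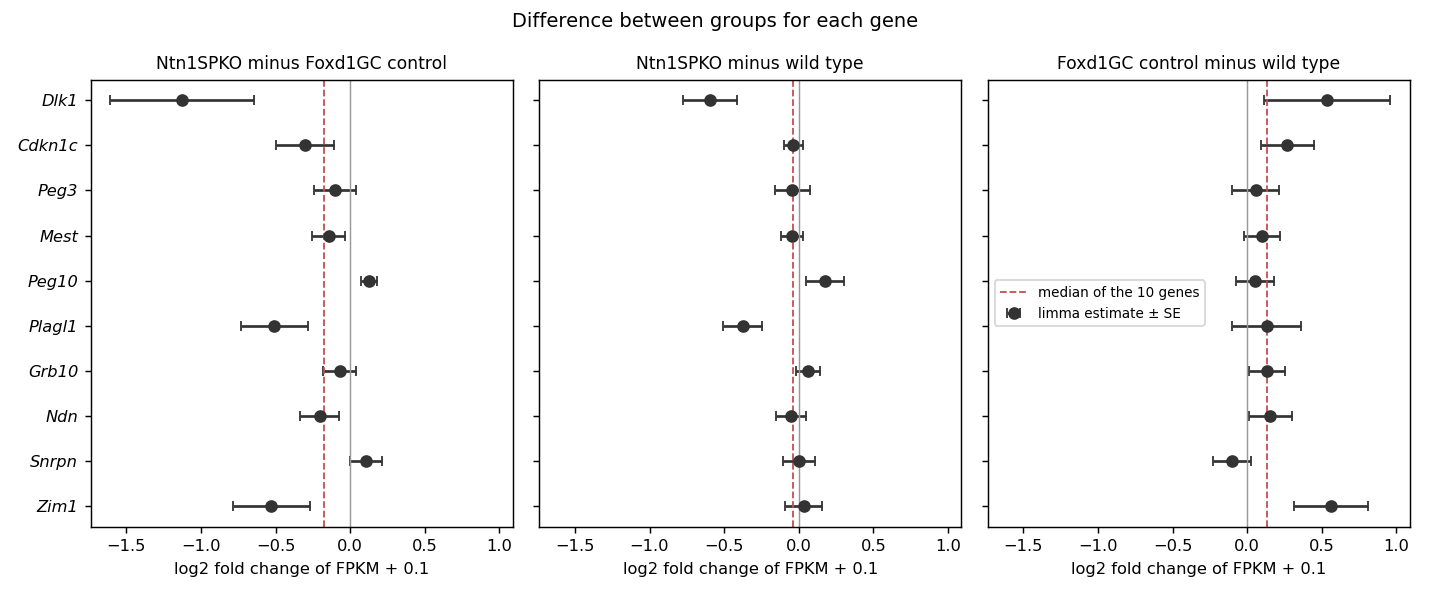
Log2 fold change with its standard error (horizontal axis) for each gene in the 3 comparisons, on log2(FPKM+0.1). The dashed line is the median of the 10 genes, at −0.175, −0.04 and 0.13 from left to right, and Dlk1, Plagl1 and Zim1 lie farthest from 0 in the left panel.

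Dlk1 encodes a transmembrane protein related to the Notch ligands, which is shed from the cell surface and holds precursor cells back from differentiation. It stood at 107, 89.3, 131 and 139 FPKM in wild-type replicates 1 to 4. Controls had 161, 83.8 and 342 FPKM and Ntn1SPKO libraries 68.2, 68.8 and 94.3. The mutants were low, but replicate 3 of the mutants lay above the lowest control and the lowest wild-type library, so the groups overlapped in both comparisons. The log2 fold change of mutants against controls was −1.13 (SE 0.48, adjusted p=0.447, exact permutation p=0.2), where 0.1 is the smallest p that 3 against 3 libraries allow. That size rested in large part on control replicate 3. Without control replicate 3 the value was −0.61, without control replicate 2 it was −1.62 (adjusted p=0.136), and against the male control replicate 2 alone, which is what a fit with embryo sex as a covariate compares, it was −0.14. Against wild type Dlk1 differed by −0.59 (SE 0.18, adjusted p=0.628, exact permutation p=0.114, smallest possible p 0.0571), and this value was between −0.75 and −0.50 with any one library left out, −0.78 with embryo sex as a covariate and −0.17 in a fit of all 10 libraries with embryo sex (adjusted p=0.905). Controls against wild type gave 0.54 (SE 0.42, adjusted p=0.7), and 0.02 without control replicate 3.

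Cdkn1c and Grb10 restrain growth from the maternal copy. Cdkn1c encodes p57Kip2, an inhibitor of cyclin-dependent kinases that takes cells out of the cycle, and was at 571, 567, 607 and 581 FPKM in wild-type libraries, 634, 559 and 964 FPKM in controls and 546, 568 and 588 FPKM in mutants. Wild-type and mutant values filled the same narrow range, with coefficients of variation of 3.07% and 3.68%, and control replicate 3 was far from it. Mutants differed from controls by −0.30 (log2, SE 0.20, adjusted p=0.499, exact permutation p=0.3), by −0.07 when control replicate 3 was left out, and from wild type by −0.04 (SE 0.07). Grb10 encodes an adaptor that dampens signalling from the insulin and IGF1 receptors. It was at 356, 353, 305 and 361 FPKM in wild type, 380.2, 322 and 435 FPKM in controls and 363, 363 and 349 FPKM in mutants. The 2 lowest libraries were the males without the deletion, wild-type replicate 3 and control replicate 2, and the male mutants lay above both. Grb10 differed between mutants and controls by −0.07 (SE 0.11, adjusted p=0.766), a sign that turned to 0.03 without control replicate 3, and between mutants and wild type by 0.06 (SE 0.08).

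Plagl1, Peg3 and Zim1 encode zinc finger proteins. Plagl1, also known as Zac1, is a transcription factor that can stop the cell cycle, and it was at 161, 155, 132 and 201 FPKM in wild-type, 201, 120.2 and 226 FPKM in control and 128, 121 and 122 FPKM in mutant libraries. Every mutant lay below every wild-type library, by a log2 fold change of −0.38 (SE 0.13, adjusted p=0.724, exact permutation p=0.0571, the smallest possible). The nearest wild-type library was the male one, replicate 3, and with embryo sex as a covariate, which sets the mutants against that library alone, the difference was −0.09. Against controls the log2 fold change was −0.51 (SE 0.23, adjusted p=0.447, exact permutation p=0.4), with control replicate 2 just below the mutant range and replicates 1 and 3 far above it. Leaving out control replicate 2 gave −0.78 with an adjusted p of 0.046, still under a 2-fold change, in a fit where all controls are female and all mutants male, so that sex and genotype cannot be told apart. Over all alternatives the adjusted p of Plagl1 against controls ranged up to 1.

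Zim1 followed the same libraries. It was at 13.53, 14.03, 12.2 and 17.7 FPKM in wild type, 25.5, 13.49 and 27.0 FPKM in controls and 15.1, 14.4 and 14.2 FPKM in mutants. Control replicates 1 and 3, both female, held the highest values of all libraries, while control replicate 2 was below the 3 mutants. The mutants differed from controls by −0.53 (SE 0.26, adjusted p=0.45, exact permutation p=0.4), from controls without replicate 2 by −0.85 (adjusted p=0.036, and as high as 1 under other alternatives) and from wild type by 0.03 (SE 0.12). Controls exceeded wild type by 0.56 (SE 0.25, adjusted p=0.665, exact permutation p=0.229). Peg3, its neighbour on chromosome 7 and the source of a large zinc finger protein studied for its effects on growth and nurturing behaviour, was at 180.3, 182, 141 and 194 FPKM in wild type, 197, 144.5 and 206 FPKM in controls and 173, 175 and 156 FPKM in mutants. Here the males without the deletion were the 2 lowest of all 10 libraries, and the male mutants lay between them and the females. Peg3 differed by −0.10 between mutants and controls (SE 0.14, adjusted p=0.738) and by −0.04 between mutants and wild type (SE 0.12).

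Mest, Peg10, Ndn and Snrpn are expressed from the paternal copy and differ widely in function. Mest, which encodes a protein with a hydrolase fold found in many mesodermal tissues of the embryo, was at 1012, 1014, 1096 and 1075 FPKM in wild type, 1143, 961 and 1286 FPKM in controls and 1020, 1055 and 972 FPKM in mutants. Its highest and lowest libraries differed by 1.34 times, the least among the 10 genes, and mutants differed from controls by −0.14 (SE 0.11, adjusted p=0.552). Peg10, a gene derived from a retrotransposon and needed in the placenta, was at 46.4, 49.2, 34.6 and 37.7 FPKM in wild type, 42.7, 43.8 and 42.7 FPKM in controls and 47.6, 45.8 and 47.5 FPKM in mutants. All 3 mutants were above all 3 controls, by a log2 fold change of 0.12 (SE 0.05, adjusted p=0.447, exact permutation p=0.1), but the wild-type range spanned both groups. The difference held its size with each library left out, at 0.12 to 0.14.

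Ndn encodes necdin, a protein of the MAGE family that binds E2F1 and is known mostly from neurons that have stopped dividing. It was at 24.6, 22.8, 28.9 and 21.8 FPKM in wild type, 25.2, 23.8 and 33.2 FPKM in controls and 23.7, 23.5 and 23.3 FPKM in mutants. The mutants lay below the lowest control by a narrow gap and inside the wild-type range. The log2 fold change against controls was −0.205 (SE 0.13, adjusted p=0.494, exact permutation p=0.1), and −0.06 without control replicate 3. Snrpn encodes SmN, a protein of the spliceosome that is most abundant in brain, and was at 11.96, 11.5, 14.4 and 10.7 FPKM in wild type, 10.3, 12.9 and 10.7 FPKM in controls and 11.5, 11.9 and 12.9 FPKM in mutants. Its 3 highest values, 14.4, 12.9 and 12.9 FPKM, came from male libraries, in reverse of Peg3 and Grb10. Mutants differed from controls by 0.11 (SE 0.11, adjusted p=0.641) and from wild type by 0.00 (SE 0.11). Snrpn shares its transcript with the short coding sequence of Snurf, which was listed at 20.9, 0, 10.7 and 53.9 FPKM in wild type, 28.3, 18.97 and 0 FPKM in controls and 0 in all 3 mutants. How reads were split between Snrpn and Snurf is uncertain where the sequences overlap, so no fold change is given for Snurf.

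Control replicate 3 was at the top of the range for most of the imprinted growth regulators. It was the highest of the 10 libraries for 8 of the 10 genes, all but Peg10 and Snrpn, whereas it was the highest for 20.7% of all 14534 genes. Summed over the 10 genes it had 3572 FPKM, and the other 9 libraries had 2284 to 2819. Skeletal muscle markers, at 346 FPKM, and ureteric bud markers, at 61.7 FPKM, moved in the same library, and liver markers were at 27.3 FPKM there, 30.9 in control replicate 1 and 4.00 to 23.3 in the other 8. Between mutants and controls all 7 tested skeletal muscle markers were lower (median log2 fold change −2.44) and all 6 ureteric bud markers higher (median 0.83), with 0 called. Against wild type all 6 tested skeletal muscle markers were lower too (median −1.90) and all 6 ureteric bud markers higher (median 0.15). Summed skeletal muscle markers were at 13.8 to 28.2 FPKM in mutants, 30.5 to 346 in controls and 45.3 to 84.8 in wild type. Ureteric bud sums were 195 to 209, 61.7 to 192 and 173.5 to 192 FPKM in the same order. Between mutants and controls all 4 tested liver markers (median −1.75) and all 5 erythroid markers (median −0.81) were lower. Erythroid markers, which come with blood, were all 5 higher in controls than in wild type (median 1.00, unadjusted p under 0.05 for 5). In that comparison 9 of the 10 imprinted genes were higher. Summed per library, the 5 erythroid markers were at 11070, 4992 and 10490 FPKM in controls and 2930 to 7497 in wild type. Mutants had 2838, 3912 and 11320 FPKM. Mutant replicate 3, the highest of all, had 2379 FPKM summed over the 10 imprinted genes, the lowest sum among the mutants. Of 6 markers of adrenal cortex and gonad, 5 were under 1 FPKM in every library. The part of other tissues and of blood in the levels of the imprinted genes was not tested. Without control replicate 3 the median log2 fold change of the 10 genes was −0.05 between mutants and controls and 0.01 between controls and wild type.

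**Figure D3:**
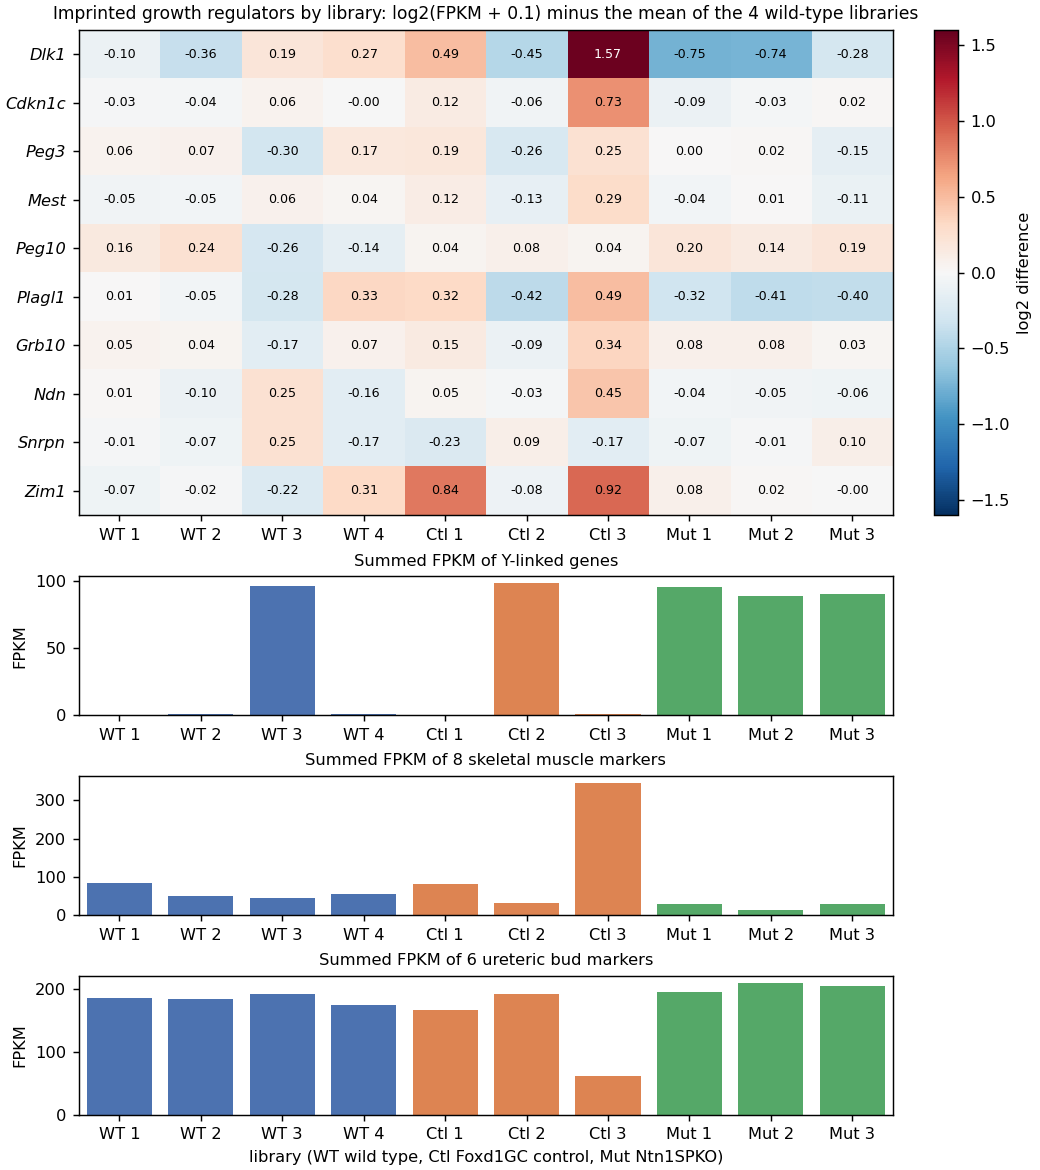
Heat map of each gene (rows) in each library (columns) as log2(FPKM+0.1) minus the wild-type mean, above bars of summed FPKM of Y-linked genes, 8 skeletal muscle markers and 6 ureteric bud markers. Control replicate 3 (Ctl 3) has the highest value in 8 of 10 rows, the tallest skeletal muscle bar at 346 FPKM and the lowest ureteric bud bar at 61.7 FPKM.

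The spread within the mutant group was small. The median coefficient of variation of the 10 genes was 3.47% over the 3 mutants, where all genes had a median of 7.52%, and it was 18.3% over the 3 controls, where all genes had 11.8%, and 13.1% over the 4 wild-type libraries, where all genes had 12.5%. Among the mutants Ndn was the steadiest, with 0.728%, and Dlk1 the least steady, with 19.4%. Ndn rests on roughly 510 to 786 fragments per library, where counting error alone is larger than 0.728%, so its closeness here is not a measure of its steadiness. The mutants share a sex, whereas controls and wild types do not, and the part of sex in the spread was not tested.

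Embryo sex moved with several of the genes among libraries without the deletion. These comprise 5 female libraries (wild-type replicates 1, 2 and 4 and control replicates 1 and 3) and 2 male ones (wild-type replicate 3 and control replicate 2), a split made from Y-linked transcripts after the data had been seen. Both males were below all 5 females for 4 of the 10 genes, Peg3, Plagl1, Grb10 and Zim1, where 6.46% of all genes behaved so, and above all females for 1, Snrpn, beside 7.42% of all genes. Peg3 was at 141 and 144.5 FPKM in the males and 180.3 to 206 FPKM in the females. Plagl1 was at 132 and 120.2 FPKM in the males and 155 to 226 FPKM in the females. For Grb10 the males had 305 and 322 FPKM and the females 353 to 435. Zim1 came close to overlapping, with 12.2 and 13.49 FPKM in the males and 13.53 to 27.0 FPKM in the females. Snrpn was at 14.4 and 12.9 FPKM in the males and 10.3 to 11.96 FPKM in the females. With 2 male libraries of 2 genotypes, 1 of which (wild-type replicate 3) also had the largest summed FPKM of the series, sex and the particulars of these libraries cannot be told apart.

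The mutants were also set against the male control alone, which is a single library. The ratio of the mutant mean to control replicate 2 ran from 0.92 (Dlk1) to 1.16 (Peg3), with Plagl1 at 1.03 and Zim1 at 1.08. Control replicate 2 lay inside the mutant range for 3 genes, below it for 6 and above it for 1. The mutants were farther from the other male without the deletion, wild-type replicate 3. Log2 differences of the mutants ran from −0.14 (Dlk1) to 0.22 (Peg3) against control replicate 2 alone. Against wild-type replicate 3 alone they ran from −0.78 (Dlk1) to 0.44 (Peg10). A fit of all 10 libraries with group and sex was added after the data had been seen. Every mutant was male, so its sex difference comes from the same 2 male and 5 female libraries without the deletion. Male minus female differences were −0.43 (SE 0.07, log2) for Peg3, −0.59 (SE 0.13) for Plagl1 and −0.60 (SE 0.15) for Zim1. Those of Grb10 and Snrpn were −0.28 (SE 0.07) and 0.31 (SE 0.08). These genes were named because the same libraries separated, so the values restate that split and add no support to it. For the other genes the differences ran from −0.565 (Dlk1, SE 0.411) to 0.043 (Ndn, SE 0.146). In this fit mutants differed from controls by −0.12 for Plagl1, −0.12 for Zim1 and −0.75 for Dlk1, with adjusted p of 0.752, 0.783 and 0.552.

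**Figure D4:**
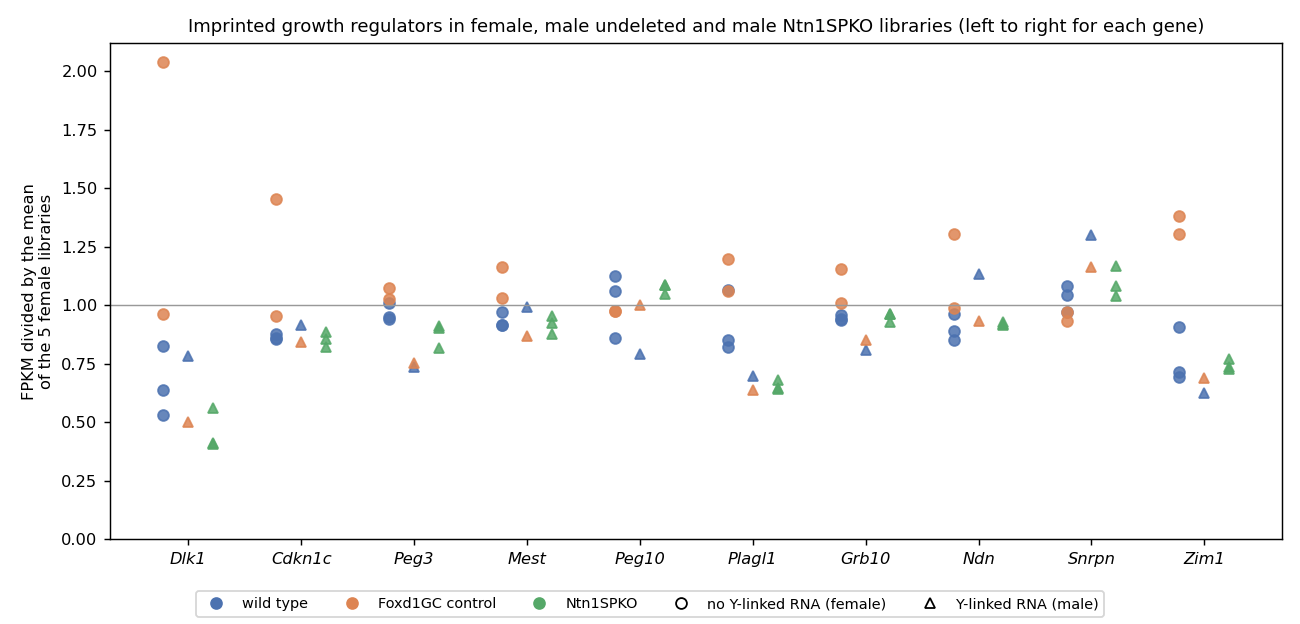
FPKM of each gene divided by the mean of the 5 female libraries (vertical axis, from 0), with female libraries as circles, male libraries without the deletion as triangles in the middle and the male Ntn1SPKO libraries at the right. For Peg3, Plagl1, Grb10 and Zim1 both middle triangles are below all circles, and the mutants of Plagl1 lie beside the middle triangles.

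Neighbours in the same imprinted domains were read from a list of 41 genes, of which 31 were in the table and 25 passed the filter. None was called between mutants and controls. Unadjusted p was under 0.05 for 3 lower and 3 higher genes, and groups did not overlap for 4 lower and 4 higher ones, beside 10.7%, 8.91% and 11% of all genes for these counts. The median log2 fold change was −0.13 beside 0.01 for all genes, with 16 lower and 9 higher. Snurf, whose split of reads with Snrpn is uncertain, is among the 25 genes and the 16 lower ones. It is also 1 of the 3 lower genes with an unadjusted p under 0.05. In the Mest domain the neighbours went apart, with Klf14 at 1.84 to 2.01 FPKM in mutants and 2.20 to 4.26 in controls (−0.68) and Copg2, which encodes a coat protein of transport vesicles, at 42.4 to 47.5 FPKM in mutants and 35.8 to 40.8 in controls (0.26). Both also lay outside the wild-type range, Klf14 below it and Copg2 above it. Beside Peg3 and Zim1, Usp29, which encodes a ubiquitin protease, was at 9.91 to 11.4 FPKM in mutants and 12.8 to 16.5 in controls (−0.37), and wild type spanned 10.4 to 14.7.

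Around Peg10 the 7 tested neighbours had no common direction. Calcr, the calcitonin receptor, was at 0.743 to 0.886 FPKM in mutants and 0.139 to 0.694 in controls (1.04), with wild type at 0.599 to 0.777. Pon2 (0.39) and Asb4 (0.43) were higher on average, and Pon3 (−0.26), Sgce (−0.22), Ppp1r9a (−0.15) and Tfpi2 (−0.51) lower. Among the 7 near Cdkn1c, Nap1l4, a histone chaperone, was at 644 to 696 FPKM in mutants and 548 to 599 in controls (0.23), and wild-type libraries at 649 to 817 FPKM were above all controls as well. The other 6 had differences from −0.19 (Cd81) to 0.13 (Kcnq1), with Phlda2, a maternally expressed brake on placental growth, at 0.03, Slc22a18 at −0.09, Tssc4 at −0.08 and Osbpl5 at −0.14. Begain near Dlk1 was at 1.78 to 2.04 FPKM in mutants and 2.15 to 2.98 in controls (−0.35), and Rtl1 and Dio3, the other Dlk1 neighbours in the table, did not pass the filter. Near Grb10, Ddc differed by −0.22 and Cobl by −0.72, the latter with control replicate 3 at 6.66 FPKM and all other libraries at 1.41 to 3.67. Near Ndn and Snrpn, Mkrn3 (−0.13), Peg12 (0.06), Ube3a (0.15) and Atp10a (−0.10) had small differences. The listed non-coding RNAs of these domains, among them Meg3 and Kcnq1ot1, were not analysed here.

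**Figure D5:**
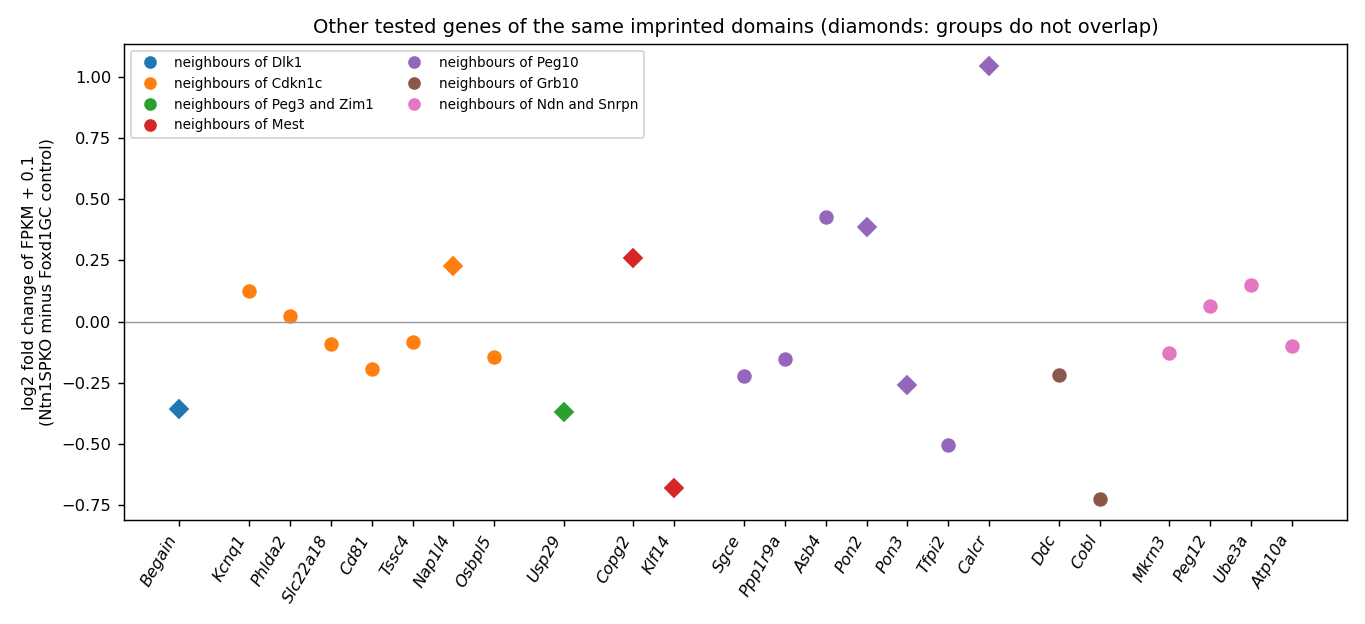
Log2 fold change between Ntn1SPKO and control kidneys (vertical axis, log2(FPKM+0.1)) of 24 tested domain neighbours, coloured by domain. Diamonds mark genes whose groups do not overlap, 4 below 0 and 4 above it, and Snurf, listed at 0 in all mutants, is not drawn.

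Imprinted genes of other domains gave 20 tested genes of 31 listed, with 0 called, 14 lower and 6 higher in mutants against controls and a median of −0.09. Unadjusted p was under 0.05 for 4 of them, all lower, and groups did not overlap for 5 lower and 2 higher genes, where these shares of all genes were again 10.7%, 8.91% and 11%. Herc3, an E3 ubiquitin ligase gene, was the sole gene among them with a change of at least 2-fold and groups that did not overlap. It was at 11.3, 12.8, 12.7 and 8.55 FPKM in wild type, 15.04, 12.9 and 12.7 FPKM in controls and 6.49, 4.86 and 7.89 FPKM in mutants, below both other groups in each library, the males included. Its log2 fold change was −1.09 against controls (adjusted p=0.405) and −0.82 against wild type (adjusted p=0.378). Igf2, the main fetal growth factor of this class, and Igf2r, which clears it, were picked out after their values had been seen. Igf2 was at 742 to 758 FPKM in mutants, 712 to 1148 in controls and 638 to 786 in wild type, with control replicate 3 again the highest. Igf2r was at 35.8 to 38.5 FPKM in mutants and 46.0 to 47.8 in controls, a difference of −0.34 with an adjusted p of 0.405, while wild-type libraries ran from 28.8 to 59.0 and spanned both.

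Genes that the imprinted regulators act with or resemble were tested as a list of 36, of which 35 passed the filter. The list comprises cyclin-dependent kinases and cyclins for Cdkn1c, insulin and IGF1 receptors with their adaptors for Grb10, Notch receptors for Dlk1, related zinc finger genes for Plagl1, spliceosome proteins for Snrpn and partners of necdin and Peg3. None was called, 11 were lower and 24 higher in mutants against controls, and the median was 0.05 with a range of −0.28 to 0.68. Against wild type 22 were lower and 13 higher, with a median of −0.02. Unadjusted p was under 0.05 for 0 lower and 4 higher of the 35 genes against controls, near the 10.7% of all genes.

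The genes whose levels ran most like each regulator over the 10 libraries were named by Pearson correlation of log2(FPKM+0.1), as a description that carries no p, since the points share library composition, sex and depth. For Dlk1 these were Islr (r=0.987, Spearman rho=0.976) and Maged2 (r=0.985, rho=0.976). For Plagl1 they were Igfbp5, which encodes a binding protein of the IGFs (r=0.986, rho=0.988), and Zfp703 (r=0.98, rho=0.976). Grb10 ran with Amot, the gene of angiomotin (r=0.988, rho=0.976), and Adamts14 (r=0.975, rho=0.879). Mest ran with Meox1, one of the nephron progenitor markers (r=0.958, rho=0.879), and Arsj (r=0.956, rho=0.855). In 8 of the 10 genes, all but Peg10 and Snrpn, both of the nearest genes peaked in control replicate 3, and without that library the correlations for Dlk1, Plagl1 and Grb10 were 0.95 to 0.99 and those for Mest 0.89.

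The remaining nearest genes were Rps6kc1 (r=0.983) and Ankrd12 (r=0.978) for Cdkn1c, Adgrl2 (r=0.965) and Rusc2 (r=0.95) for Peg3, Add1 (r=0.956) and Sema6d (r=0.932) for Peg10, Hacd1 (r=0.971) and Rbm4 (r=0.965) for Ndn, Utp11 (r=0.942) and Gm8288 (r=0.936) for Snrpn, and Col5a3 (r=0.976) and Med13l (r=0.966) for Zim1. Their Spearman rho ran from 0.758 (Sema6d) to 0.988 (Rusc2). Among pairs of the 10 genes themselves, Cdkn1c and Dlk1 ran together (r=0.91, and 0.85 without control replicate 3), as did Grb10 and Peg3 (r=0.88, and 0.91 without it). Peg3 and Snrpn ran in opposite directions (r=−0.94 with and without that library), and so did Grb10 and Snrpn (r=−0.82, and −0.89 without it). The neighbours Peg3 and Zim1, expressed from opposite parental copies, had r=0.77 (0.70 without control replicate 3), and Ndn and Snrpn, expressed from the same copy of 1 domain, r=0.05 (0.58 without it).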

How the data were processed

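RNA was sequenced from 10 libraries of E13.5 mouse kidneys, assigned to 3 groups by their deposited labels. According to the methods of the study, the authors quantified reads with Salmon against coding sequences of GRCm38, imported them with tximport and tested them with DESeq2, and the submitters' processing notes name bcl2fastq 2.17.1.14. The deposited values are FPKM, not counts, so a count test was not run. Median-of-ratios factors were 1.002 in every library, so the values were already on a common scale of that kind, and they were used as deposited. Depth was estimated from steps between low values at 28.2 to 34.5 M fragments (M, mega). This is rough and may differ from the number of fragments sequenced.

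Genes were kept where they averaged 0.5 FPKM or more across the libraries of a fit, and log2(FPKM+0.1) was then analysed in limma 3.58.1 (R 4.3.3, eBayes with an intensity trend, Benjamini-Hochberg over all genes tested), with only the 2 compared groups in a fit. A fold change on this scale understates the change of low genes. Single genes were also tested with two-sided exact permutation tests (scipy). The steps were tested on simulated data of mutants and controls. At a simulated log2 change of 2, 166 of 189 changed genes were called (87.8%). At a log2 change of 1, the size that a call requires, 77 of 192 were called (40.1%), so many changes of that size are missed.

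Named genes were the 10 regulators, each tested gene of their domains, genes of other lists that were called or had groups that did not overlap with at least a 2-fold change, and the 2 genes nearest to each regulator by Pearson correlation. The regulators and lists were chosen with earlier results of these data known. Positions are 1-based, from GENCODE M21 (GRCm38), in which 96.3% of the entries were found by symbol, and promoter windows are from RefSeq (GRCm38.p6). Alternatives were other pseudocounts, filters, scalings and variance models, 1 fit of all libraries, a replicate block, embryo sex and leaving out each library. The fit of all libraries with embryo sex was added after the data had been seen.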

Additional observations from a re-analysis of the deposited data

Results flagged for a closer look

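Grb10 in wild-type kidneys was flagged because replicate 3, at 305 FPKM, lay far from the other 3 libraries, at 353 to 361 FPKM. The gap to its nearest neighbour was 0.857 of the range of the group, above the critical value of Dixon's test for 4 samples. Of the 10 genes tested in this way 1 was flagged, where chance flags about 1 in 20 groups. Replicate 3 was the male wild-type library and had the largest summed FPKM, 1002638, where the other 9 libraries had 795829 to 874966. The part of either in the low Grb10 value was not tested.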

How the results depend on the processing

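None of the 10 genes was called under any alternative run, in any of the 3 comparisons. With embryo sex as a covariate the median log2 fold change of the 10 genes between Ntn1SPKO and control kidneys moved from −0.175 to 0.060, and signs turned for Cdkn1c (0.020), Peg3 (0.217), Mest (0.079), Plagl1 (0.041), Grb10 (0.155), Snrpn (−0.086) and Zim1 (0.109). That fit compares the mutants with control replicate 2 alone. All 10 libraries in one fit with embryo sex turned Peg3 (0.188), Grb10 (0.114) and Snrpn (−0.102). For Ntn1SPKO against wild type, embryo sex, which compares the mutants with wild-type replicate 3 alone, turned Peg3 (0.254, adjusted p=0.0913) and Snrpn (−0.246), and brought the adjusted p of Grb10 (0.230, adjusted p=0.0232), Ndn (−0.299, adjusted p=0.0587) and Peg10 (0.440, adjusted p=0.0979) under 0.1 at less than a 2-fold change. In that fit 3249 of all 14432 tested genes had an adjusted p under 0.1, and called genes of the whole table went from 7 to 187. In the same comparison all 10 libraries with embryo sex turned Cdkn1c (0.102), Peg3 (0.283), Mest (0.038), Plagl1 (0.064) and Snrpn (−0.231). Quantile normalization turned Cdkn1c (0.043), Peg3 (0.006), Mest (0.045) and Snrpn (−0.003), and scaling to the same summed FPKM turned Cdkn1c (0.020), Peg3 (0.014), Mest (0.009) and Ndn (0.004), all close to 0 in the reported fit as well. The cause of these turns was not tested beyond the construction of the fits.

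The replicate block turned Peg3 (0.012) and Snrpn (−0.053) against wild type, changed no call among the 10 genes, and took the called genes of the whole table from 8 to 4 between Ntn1SPKO and controls. Deviations of libraries with the same replicate number from their group means had weak correlations, of −0.039 to 0.078. Whether the numbers pair the libraries cannot be told from these values.

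Leaving out each library in turn turned Grb10 between Ntn1SPKO and controls (−0.183 to 0.034). Against wild type it turned Peg3 (−0.141 to 0.012), Ndn (−0.106 to 0.031), Snrpn (−0.053 to 0.086) and Zim1 (−0.041 to 0.137). Between controls and wild type it turned Peg3 (−0.040 to 0.217), Mest (−0.001 to 0.209), Peg10 (−0.036 to 0.133) and Plagl1 (−0.047 to 0.407). In all, 665 values under alternatives were counted as the same, 42 turned and 1 median moved. For a single gene the same meant an unchanged direction and call. Other filters, other variance models and the fit of all libraries without embryo sex leave each log2 fold change as it was. Under these settings the direction could not turn, so the count of 665 is not a measure of stability. For a median it meant a shift under 0.144, so that a median close to 0 could change sign and still be counted. Without control replicate 2, which leaves sex and genotype confounded, called genes of the whole table rose from 8 to 78, with 0 among the 10 genes. They were 3 without Ntn1SPKO replicate 2, 21 without Ntn1SPKO replicate 1, 10 without Ntn1SPKO replicate 3, and 16 and 20 without control replicates 1 and 3. With 3 or 4 libraries in a group, a difference that misses the thresholds does not show that levels were equal.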
